A study of Mus musculus with 30 samples.

Results

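The genes described are the 10 cyclins of the A, B, D and E classes, taken by symbol from a deposited table of 20889 genes: Ccna1, Ccna2, Ccnb1, Ccnb2, Ccnb3, Ccnd1, Ccnd2, Ccnd3, Ccne1 and Ccne2. All 10 were found. RNA had been sequenced from germ cell fractions of C57BL/6 mouse testes taken 0, 7, 12 or 14 days after birth (P0, P7, P12, P14). KIT groups (P7, P12, P14) were enriched on magnetic beads for KIT, the receptor of differentiating spermatogonia, and THY1 groups (P0, P7, P12, P14) for THY1, a surface protein used to enrich undifferentiated spermatogonia. OCT4-GFP cells (P0, P7) and ID4-GFP cells (P7) were sorted by fluorescence from reporter mice. A group labelled P7 VASA THY1 is used as labelled, but the protocol names sorted VASA-GFP cells at P0 only, so its age is uncertain.

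The table gives 1 FPKM value per gene and group, that is, fragments normalised for transcript length and library size. Of the 11 groups, P7 KIT, P12 KIT, P0 THY1, P7 THY1 and P12 THY1 stand for 2 libraries each and the other 6 for 1 library each. No value has a replicate error, no test was run, and each difference describes these libraries alone. A difference is that of log2(FPKM + 1), the first named group minus the second, which understates changes at low level. It was counted at 2-fold or more, a log2 difference of at least 1, where the higher group had FPKM of 5 or more; the larger rule is 4-fold. Read depth is not held in FPKM. From the steps between very low values, 1 fragment was worth 0.957 to 2.04 times its worth in P14 THY1 in 9 groups. The ratio read for P7 THY1 was 3.72, from 14.8% of 237 genes, and may be off by a whole-number factor; if right, low FPKM values of P7 THY1 had the coarsest counts. All 12 germ cell markers were above 0 in every group, and so were the measured markers of somatic testis cells. Fibroblast and stroma markers summed to 29.1 FPKM in P7 ID4-GFP cells and to 7095 FPKM in P0 THY1 cells, the lowest and highest of the 11. The 10 macrophage markers summed to 417 and 277 FPKM in OCT4-GFP cells at P0 and P7, to 13.6 FPKM in ID4-GFP cells, and to 500 and 61.3 FPKM in THY1 cells at P0 and P7.

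Cyclins are the regulatory subunits that switch on cyclin-dependent kinases (CDKs), and their waves of synthesis and breakdown order the cell cycle. D cyclins with CDK4 and CDK6 respond to growth signals in G1, E cyclins with CDK2 act at the start of DNA replication, A cyclins act in S phase and G2, and B cyclins with CDK1 drive division. In the testis, spermatogonia divide by mitosis before they enter meiosis, and some cyclins, among them the products of Ccna1, Ccnb3 and Ccne2, are known from the meiotic cells. At these ages the seminiferous tubules pass from gonocytes at birth to spermatogonia in the first week and to the first spermatocytes in the second.

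Ccne2, the E cyclin known in mice to be needed for full male fertility, had the highest level of any member, and the largest KIT to THY1 difference. It stood at 44.5, 77.1 and 188 FPKM in KIT cells at P7, P12 and P14, and at 21.2, 21.6, 18.0 and 71.2 FPKM in THY1 cells at P0, P7, P12 and P14. The GFP-sorted groups were lowest, at 15.4 and 10.6 FPKM in OCT4-GFP cells at P0 and P7 and 15.1 FPKM in ID4-GFP cells, and P7 VASA THY1 stood at 34.7 FPKM. At each of the 3 ages the KIT group was above the THY1 group, and P14 was the highest age in both populations. The P14 KIT level lay at percentile 98.9 of all genes in that group. Since each group is a bulk sample, a larger share of cells with the transcript and more transcript per cell cannot be told apart, here or below.

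Ccne1, the other E cyclin, was higher in KIT than in THY1 cells at each shared age and changed little with age in KIT cells, while later THY1 and OCT4-GFP groups were lower than earlier ones up to P12. It stood at 19.3, 19.3 and 23.1 FPKM in KIT cells at P7, P12 and P14, and at 16.4, 11.7, 7.70 and 7.91 FPKM in THY1 cells at P0, P7, P12 and P14. P0 OCT4-GFP cells were highest at 28.4 FPKM, and the 3 remaining P7 groups lay between 12.0 FPKM (VASA THY1) and 16.6 FPKM (ID4-GFP). The ratio of Ccne2 to Ccne1 was 0.544 in P0 OCT4-GFP cells, 0.662 in P7 OCT4-GFP cells and 0.913 in P7 ID4-GFP cells. In every other group, P0 THY1 included, Ccne2 was the higher of the pair. There the ratio was 1.29 in P0 THY1, 1.84 in P7 THY1 and 2.30 in P7 KIT cells. It was highest at P14, at 8.14 in KIT and 9.01 in THY1 cells.

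Ccnd2, a D cyclin expressed in spermatogonia, had nearly the inverse order of Ccne2. It stood at 27.6, 30.7 and 9.68 FPKM in KIT cells at P7, P12 and P14, and at 47.6, 41.9, 40.3 and 18.8 FPKM in THY1 cells at P0, P7, P12 and P14. Sorted cells were highest, at 76.9 and 63.1 FPKM in OCT4-GFP cells at P0 and P7 and 71.5 FPKM in ID4-GFP cells, and P7 VASA THY1 stood at 29.4 FPKM. KIT groups were below THY1 groups at each of the 3 ages, and P14 was lowest in both populations. Across the 11 groups Pearson's r between Ccnd2 and Ccne2 on the log2(FPKM + 1) scale was -0.94 and Spearman's rho was -0.88. Without the P14 groups, r was -0.83 over 9 groups. These are descriptions over groups that share ages and selections. All pairs of the cyclins that reached 5 FPKM were computed, and this pair had the r furthest from 0 over the 11 groups. The ratio of Ccne2 to Ccnd2 ran from 0.168 in P7 OCT4-GFP cells to 19.5 in P14 KIT cells.

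**Figure D1:**
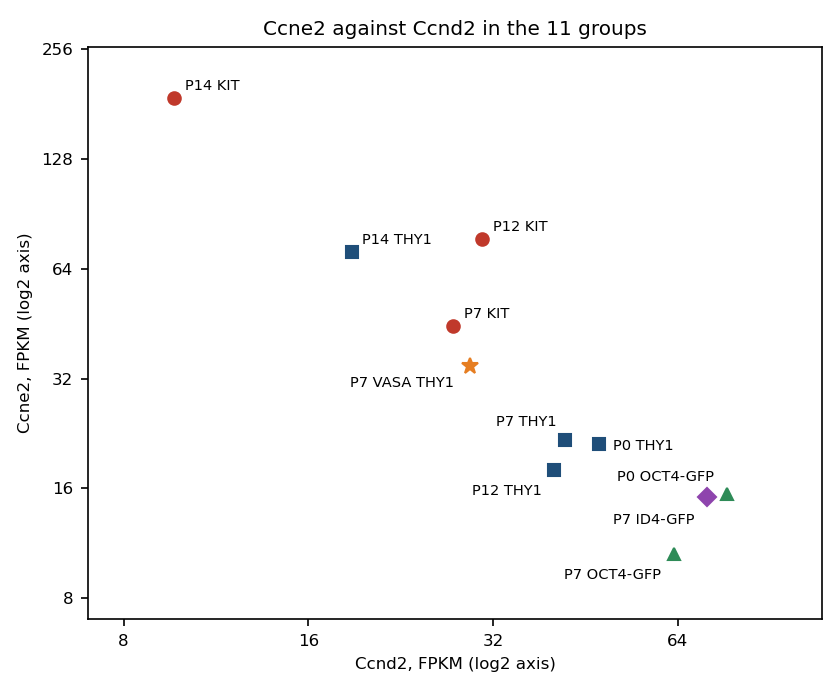
Ccne2 (vertical) against Ccnd2 (horizontal), FPKM on log2 axes, 1 point per group: circles KIT, squares THY1, triangles OCT4-GFP, diamond ID4-GFP, star VASA THY1. P14 KIT lies at the upper left with 188 FPKM of Ccne2 and 9.68 FPKM of Ccnd2, and the GFP-sorted groups lie at the lower right.

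Ccnd1, the D cyclin best known as a target of growth factor signalling, varied with both age and selection. It stood at 42.9, 16.2 and 51.8 FPKM in KIT cells at P7, P12 and P14, and at 23.7, 17.4, 12.0 and 18.8 FPKM in THY1 cells at P0, P7, P12 and P14. P12 was the lowest age in both populations. Among sorted cells it stood at 61.3 and 35.0 FPKM in OCT4-GFP cells at P0 and P7 and at 61.1 FPKM in ID4-GFP cells, and P7 VASA THY1 had 49.9 FPKM. The ratio of Ccnd2 to Ccnd1 was 0.643, 1.90 and 0.187 in KIT cells at P7, P12 and P14, and 2.01, 2.40, 3.36 and 1.00 in THY1 cells at P0, P7, P12 and P14, so Ccnd1 was the higher of the pair in P7 and P14 KIT cells and in P7 VASA THY1 (0.589).

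Ccnd3, the D cyclin with the broadest expression across tissues, was highest in P0 THY1 at 56.8 FPKM and lay between 12.5 and 36.5 FPKM elsewhere. It stood at 24.5, 12.5 and 14.6 FPKM in KIT cells at P7, P12 and P14, and at 16.8, 13.5 and 19.5 FPKM in THY1 cells of those ages. The 9 fibroblast and stroma markers, all above 0 in every group, summed to 7095 FPKM in P0 THY1 and to at most 1550 FPKM in the other groups. The 8 peritubular myoid markers, also all above 0, summed to 1430 FPKM there and to at most 448 FPKM elsewhere. Their part in the Ccnd3 level was not tested.

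Ccna2, the A cyclin of dividing cells, was the most abundant mitotic cyclin in most groups. It stood at 108, 68.2 and 94.2 FPKM in KIT cells at P7, P12 and P14, and at 58.9, 76.3, 41.2 and 39.9 FPKM in THY1 cells at P0, P7, P12 and P14. Sorted cells had 130 and 110 FPKM (OCT4-GFP at P0 and P7) and 115 FPKM (ID4-GFP), and P7 VASA THY1 had 82.9 FPKM. Each KIT group was above the THY1 group of its age. Ccna2 was below the B cyclin Ccnb2 in 1 group, P14 THY1.

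Ccna1, the germ cell A cyclin that mouse spermatocytes need for the first meiotic division, stayed under 5 FPKM in every group and so could not be counted. It stood at 0.833, 0.786 and 0.929 FPKM in KIT cells at P7, P12 and P14, and at 0.650, 0.118, 0.162 and 2.61 FPKM in THY1 cells at P0, P7, P12 and P14. P7 VASA THY1 was highest at 2.87 FPKM, and OCT4-GFP and ID4-GFP cells lay between 0.381 and 0.719 FPKM. Of the bead-enriched groups without the VASA label, P14 THY1 was highest. In that group 13 of 15 late meiotic and spermatid markers reached 5 FPKM, Acrv1 was at 0 and their sum was 5131 FPKM, against at most 997 FPKM in every other group. In P7 VASA THY1 the sum was 233 FPKM, and Acrv1 and Adam3 of that list were at 0. Tex101, which is also among the germ cell markers, gave 170 of these 233 FPKM. It gave 790 of the 997 FPKM in P14 KIT and 851 of the 5131 FPKM in P14 THY1. The part of late meiotic cells and spermatids in the Ccna1 level was not tested.

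**Figure D2:**
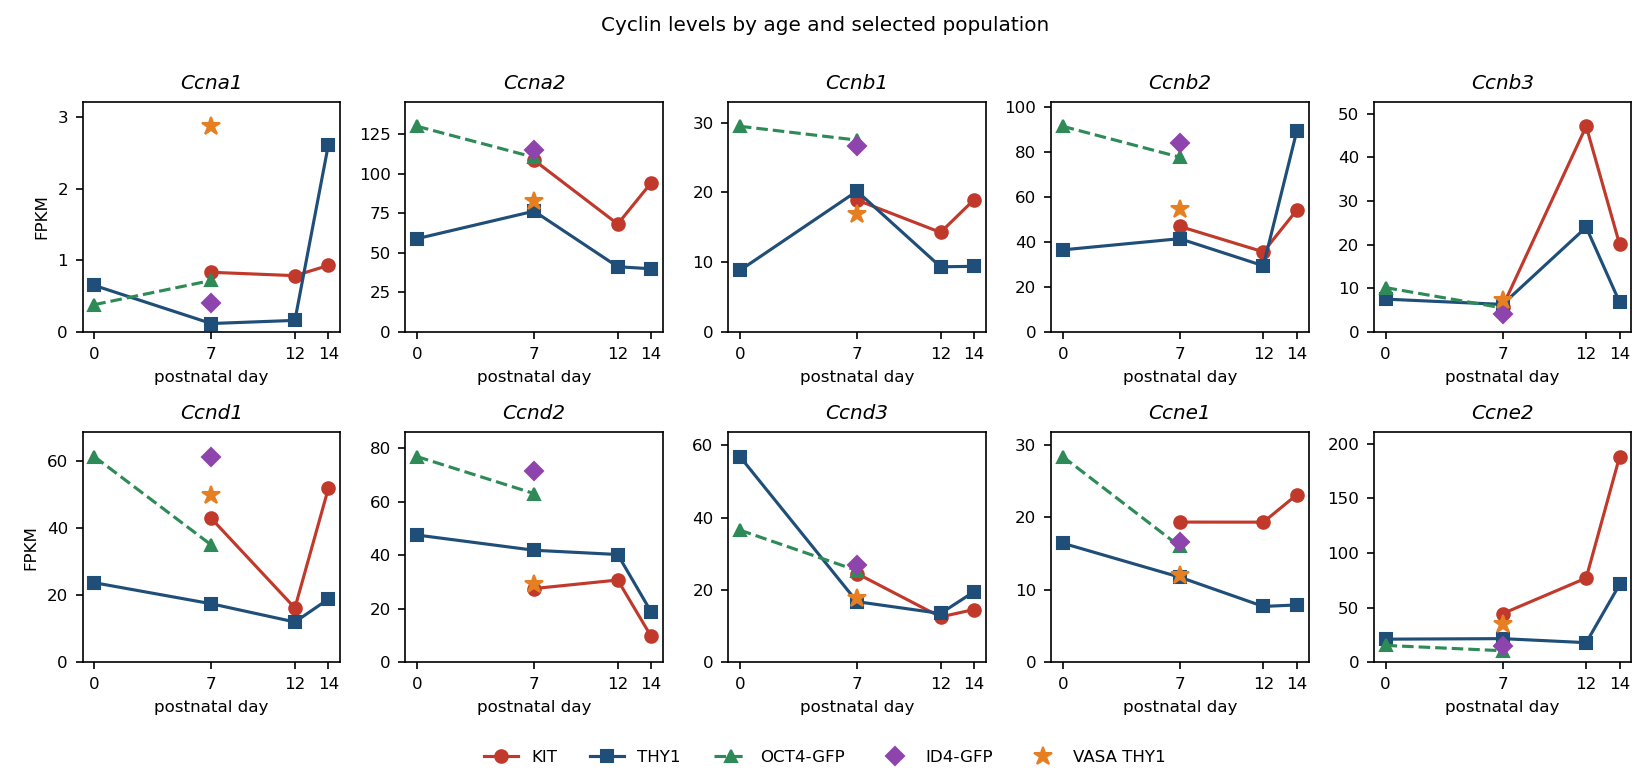
FPKM of each cyclin (vertical, linear from 0, own scale per panel) against postnatal day: circles KIT, squares THY1, triangles OCT4-GFP, diamond ID4-GFP, star VASA THY1, 1 value per group, with lines joining ages of 1 selection. Ccne2 reaches 188 FPKM in P14 KIT cells, Ccnb3 peaks at 47.1 FPKM in P12 KIT cells and at P14 Ccnb2 is the only one of the 3 B cyclins with THY1 above KIT.

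The B cyclins had a different order of groups each, and the promoters of all 3 were available from RefSeq on build GRCm38.p6. Stretches upstream of their annotated start sites are given here, that of Ccnb2 running on past its start site to position 12. Capitals mark CCAAT boxes (the letters CCAAT, bound by NF-Y), the CHR element of cell cycle genes (spelled TTTGAA, or otherwise TTTAAA) and the E2F core (spelled TTCGCGC, otherwise TTGGCGC, or else spelled TTCCCGC, or in the last form TTGCCGC), each sought on both strands. All 3 stretches are on the minus strand, at chr13:100786487-100786616 for Ccnb1, chr9:70421543-70421664 for Ccnb2 and chrX:7041660-7041819 for Ccnb3.
Ccnb1: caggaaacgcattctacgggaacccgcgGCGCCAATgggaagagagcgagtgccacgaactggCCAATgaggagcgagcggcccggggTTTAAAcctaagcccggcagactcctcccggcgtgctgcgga
Ccnb2: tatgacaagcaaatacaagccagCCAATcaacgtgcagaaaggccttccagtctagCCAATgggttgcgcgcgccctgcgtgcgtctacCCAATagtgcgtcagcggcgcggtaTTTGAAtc
Ccnb3: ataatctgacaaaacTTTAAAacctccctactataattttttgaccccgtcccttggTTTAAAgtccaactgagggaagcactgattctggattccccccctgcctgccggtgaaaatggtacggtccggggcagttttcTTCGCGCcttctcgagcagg
The Ccnb1 stretch holds 2 CCAAT boxes, at positions -99 and -67 from the start site, 32 bases apart, and a CHR at -42. A reverse-strand E2F core overlaps the first box. The Ccnb2 stretch holds 3 CCAAT boxes, at -87, -54 and -21, each 33 bases from the next, and a CHR at 5; another CHR lies at -167. No CCAAT box was found in the window of Ccnb3, which holds a CHR at -185 and at -143 and an E2F core at -60. Of 32851 such windows of 300 bases, 37.4% hold a CCAAT box, 11.7% hold at least 2, 27.6% hold a CHR and 9.57% an E2F core; 3.13% hold 2 CCAAT boxes and a CHR. These matches describe letters, not binding. Of the 10 cyclins 6 had a window: the 3 B cyclins, Ccna1, Ccnd3 and Ccne1. No window was available for Ccna2, Ccnd1, Ccnd2 and Ccne2.

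Ccnb1, the B cyclin that cells cannot divide without, moved with Ccna2. It stood at 18.9, 14.3 and 19.0 FPKM in KIT cells at P7, P12 and P14, and at 8.83, 20.2, 9.34 and 9.41 FPKM in THY1 cells at P0, P7, P12 and P14. Sorted cells had 29.5 and 27.5 FPKM (OCT4-GFP at P0 and P7) and 26.7 FPKM (ID4-GFP), and P7 VASA THY1 had 16.9 FPKM. KIT and THY1 groups were close at P7 and apart at P12 and P14. The ratio of Ccna2 to Ccnb1 stayed between 3.78 and 6.67, and Pearson's r between them was 0.93 over the 11 groups. RefSeq lists related-sequence synonyms for Ccnb1, so reads from close copies could be part of its value.

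Ccnb2, a B cyclin that mice can live without, had a higher ratio to Ccnb1 in P14 THY1 than in any other group. It stood at 47.0, 35.6 and 54.2 FPKM in KIT cells at P7, P12 and P14, and at 36.5, 41.5, 29.5 and 89.4 FPKM in THY1 cells at P0, P7, P12 and P14. Sorted cells had 91.5 and 77.8 FPKM (OCT4-GFP at P0 and P7) and 84.2 FPKM (ID4-GFP), and P7 VASA THY1 had 54.8 FPKM. P14 THY1 therefore stood next to P0 OCT4-GFP at the top, and its ratio of Ccnb2 to Ccnb1 was 9.50, against 2.06 to 4.14 in the 10 other groups. Pearson's r between Ccnb1 and Ccnb2 was 0.56 over the 11 groups and 0.90 over the 9 groups without P14. P14 THY1 is also the group with the high late meiotic and spermatid markers given above, whose part here was not tested.

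Ccnb3, a B cyclin transcribed in early meiotic prophase in the mouse testis, peaked at P12. It stood at 5.82, 47.1 and 20.1 FPKM in KIT cells at P7, P12 and P14, and at 7.53, 6.32, 24.0 and 6.83 FPKM in THY1 cells at P0, P7, P12 and P14. The other groups lay between 4.04 FPKM (ID4-GFP) and 10.2 FPKM (P0 OCT4-GFP). P12 KIT was 1.96 times P12 THY1, the next group in the order, and P12 was the highest age in both populations. The ratio of Ccnb3 to Ccnb1 was 3.30 and 2.57 in P12 KIT and P12 THY1 cells, 1.06 in P14 KIT cells and under 1 in the 8 other groups. The 20 meiotic prophase markers, all above 0 in every group, summed to 2323 and 883 FPKM in P12 KIT and P12 THY1 and to 2059 and 1560 FPKM in P14 KIT and P14 THY1. P12 KIT was the highest group for these markers and for Ccnb3, whereas P14 THY1 had high markers and low Ccnb3. P12 THY1 had a lower marker sum than P14 KIT and a higher Ccnb3 level. The part of meiotic prophase cells in the Ccnb3 level was not tested.

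Summed by class, the share of E cyclins among the 10 transcripts was 18.8%, 30.0% and 44.4% in KIT cells at P7, P12 and P14, and 13.5%, 13.2%, 13.1% and 27.8% in THY1 cells at P0, P7, P12 and P14. In GFP-sorted cells it was 9.13% (P0 OCT4-GFP), 7.15% (P7 OCT4-GFP) and 7.53% (ID4-GFP). The share of D cyclins was 27.9%, 18.5% and 16.0% in the KIT groups in order of age, and 46.1%, 30.0%, 33.6% and 20.1% in the THY1 groups. E cyclin transcripts outnumbered D cyclin transcripts, per length, in P12 KIT (ratio 1.62), P14 KIT (2.78) and P14 THY1 (1.39) and in no other group. The sum of all 10 was lowest in P12 THY1 at 196 FPKM and highest in P0 OCT4-GFP at 480 FPKM, with P14 KIT next at 476 FPKM.

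**Figure D3:**
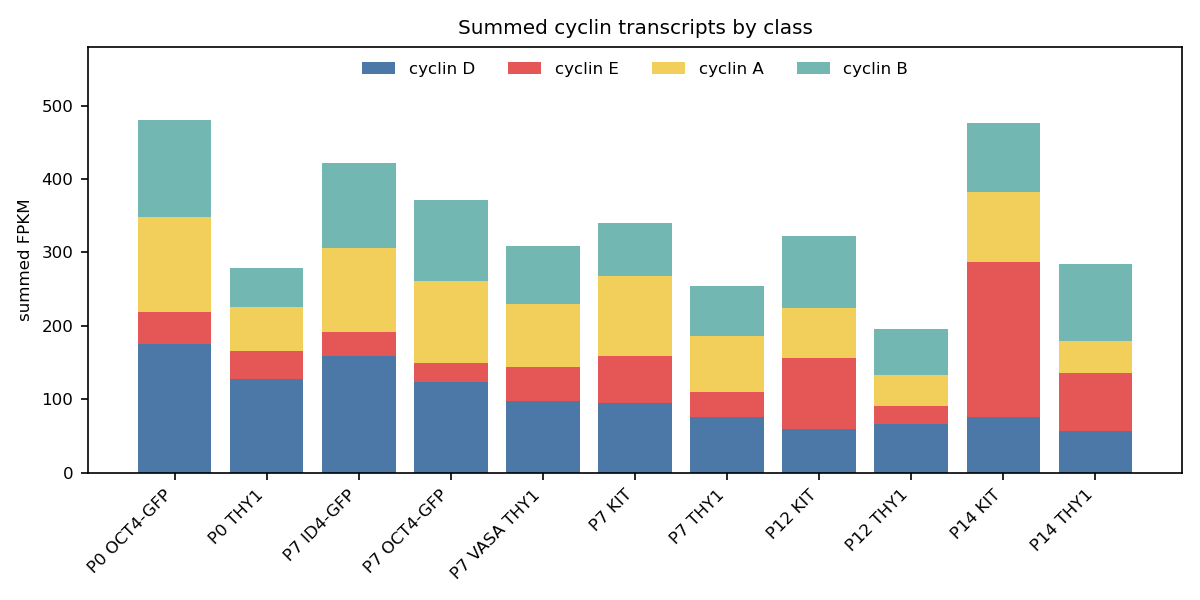
Summed FPKM of the D, E, A and B cyclins (stacked bars from 0, bottom to top) in the 11 groups. The E segment is 211 FPKM in P14 KIT and 25.7 FPKM in P12 THY1, its extremes.

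Between KIT and THY1 cells of one age, 9 of the 10 cyclins could be counted at each age, Ccna1 being too low. KIT and THY1 name the selection here, not a cell type. Meiotic prophase markers summed to 590, 2323 and 2059 FPKM in KIT cells at P7, P12 and P14, and to 500, 883 and 1560 FPKM in THY1 cells. At P7 the 2-fold rule was passed upwards in KIT cells by 2 and downwards by 0: Ccnd1 (difference 1.25) and Ccne2 (1.01). With the same median in every group, 1 was left, Ccnd1. Of the 9817 genes that could be counted, 2.78% were higher and 2.73% lower. Set against P7 VASA THY1 instead, a choice made after the values were seen, P7 KIT had 0 past 2-fold and the Ccnd1 difference turned to -0.22. At P12, 2 were higher and 0 lower, Ccne2 (2.04, past 4-fold) and Ccne1 (1.22), against 4.66% higher and 6.51% lower of all genes at 2-fold and 0.287% higher at 4-fold. When the groups were scaled to the same Ddx4 and Dazl level, germ cell genes, 1 remained at P12, Ccne2.

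At P14 the KIT value was 2-fold higher or more for 5 of 9 and lower for 0, against 8.58% higher and 15.7% lower of all 10015 genes that could be counted. They were Ccne1 (1.44), Ccnb3 (1.43), Ccnd1 (1.41), Ccne2 (1.39) and Ccna2 (1.22), and Ccnb1 was just short at 0.94. Scaled to Ddx4 and Dazl, Ccna2 stood at 0.87, and Ccnb2 (-1.06) and Ccnd2 (-1.20) were lower past 2-fold, giving 4 higher and 2 lower. Without that scaling Ccnd2 (-0.89) and Ccnb2 (-0.71) had the lowest values of those counted. The median difference was taken over all 10 cyclins, with Ccna1 included though it could not be counted. It was 0.51, 0.59 and 1.08 at P7, P12 and P14, beside medians of 0.03, 0.02 and 0.12 over all genes that could be counted. Other measures moved with these. At P14, 12 of 14 late meiotic and spermatid markers that could be counted were lower in KIT cells (sums 997 against 5131 FPKM), as were 8 of 8 fibroblast and stroma markers (436 against 1550 FPKM) and 5 of 5 macrophage markers (4.07 against 69.7 FPKM). The 8 proliferation markers, all above 5 FPKM everywhere, summed to 743, 965 and 1034 FPKM in KIT cells at P7, P12 and P14, and to 623, 424 and 554 FPKM in THY1 cells of those ages. Sertoli markers (13 measured, all above 0) summed to 567, 723 and 97.9 FPKM in the KIT groups and 855, 1872 and 69.9 FPKM in the THY1 groups. Leydig markers (8 measured, all above 0) summed to 1136, 228 and 591 FPKM in the KIT groups and 127, 92.8 and 158 FPKM in the THY1 groups. Their part in the cyclin differences was not tested.

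**Figure D4:**
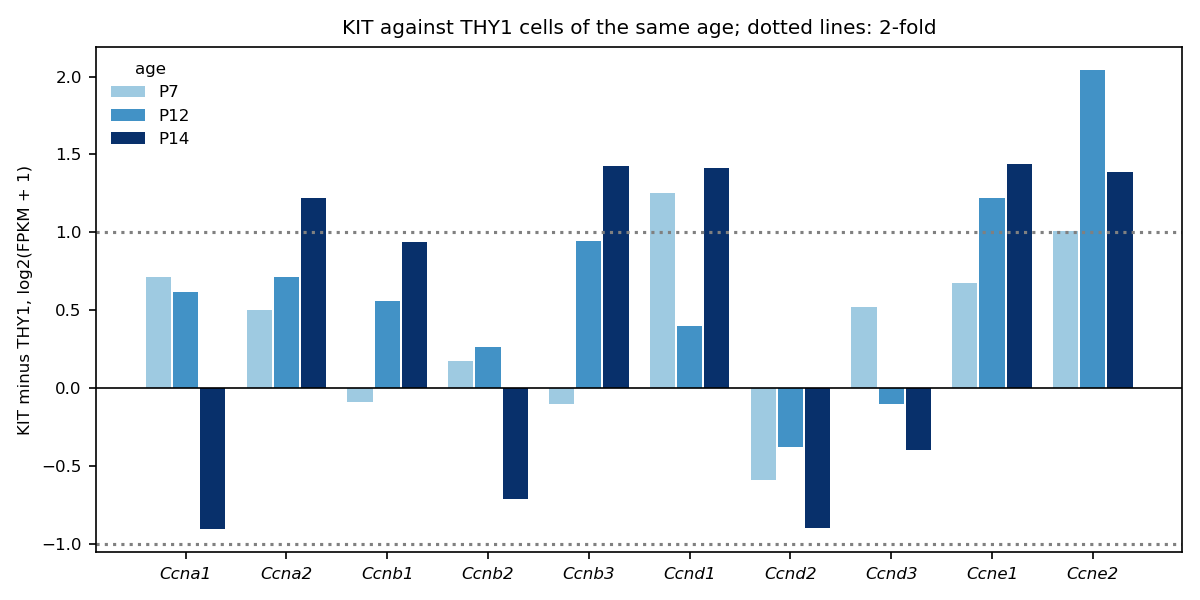
KIT minus THY1 difference in log2(FPKM + 1) for each cyclin (bars, from light to dark P7, P12 and P14), with dotted lines at 2-fold. Ccne1 and Ccne2 are above 0 and Ccnd2 below 0 at all 3 ages.

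With age, cyclins went both ways in both populations. From P0 to P7 in THY1 cells 1 was higher, Ccnb1 (1.11), and 1 lower, Ccnd3 (-1.70), beside 6.34% higher and 17.2% lower of all genes. Scaled to Ddx4 and Dazl, 0 were higher and 5 lower, the 5 being Ccnb3, Ccnd1, Ccnd2, Ccnd3 and Ccne1. Scaling of this kind raised P0 THY1 values by 2.20 times, since Ddx4 and Dazl stood at 65.0 and 257 FPKM there, the lowest of the 11 groups. From P7 to P12 in THY1 cells Ccnb3 was higher (1.77) and Ccnb1 lower (-1.03, and -0.84 when scaled to Ddx4 and Dazl), beside 6.1% and 2.32% of all genes. With P7 VASA THY1 as the P7 group, Ccnd1 took the place of Ccnb1 in both steps. From P12 to P14 in THY1 cells Ccne2 (1.93) and Ccnb2 (1.57) were higher, and Ccnb3 (-1.68) and Ccnd2 (-1.06) lower, beside 15.9% and 16.6% of all genes.

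In KIT cells from P7 to P12, Ccnb3 was higher past 4-fold (2.82) and Ccnd1 lower (-1.35). Scaled to Ddx4 and Dazl, Ccna2 (-1.03) and Ccnd3 (-1.26) were lower past 2-fold too. Of all genes 5.83% were higher and 4.07% lower at 2-fold, and 0.873% higher at 4-fold. From P12 to P14 Ccnd1 (1.62) and Ccne2 (1.28) were higher, and Ccnd2 (-1.57) and Ccnb3 (-1.19) lower, beside 5.52% and 11.2% of all genes. Both populations therefore had higher Ccnb3 at P12 than at P7, and lower Ccnb3 and Ccnd2 and higher Ccne2 at P14 than at P12. The THY1 steps from P7 to P12 and from P12 to P14 share the P12 THY1 group, and the KIT steps share the P12 KIT group. The THY1 steps from P0 to P7 and from P7 to P12 share the P7 THY1 group. A high or low value of a shared group enters both steps, as does that of Ccnb1 in P7 THY1 (20.2 FPKM).

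The GFP-sorted groups were compared with bead-enriched cells of their age and with each other. At P0, 4 of 9 cyclins were at least 2-fold higher in OCT4-GFP than in THY1 cells and 0 lower: Ccnb1 (1.63), Ccnd1 (1.33), Ccnb2 (1.30) and Ccna2 (1.13). All genes were 14.5% higher and 21.9% lower. Scaled to Ddx4 and Dazl, none of the 4 passed: Ccnb1 stood at 0.23, and Ccna2, Ccnb2 and Ccnd1 turned to -0.35, -0.17 and -0.12. On that scale Ccnd3 (-2.10) and Ccne2 (-1.87) were lower past 2-fold. At P7 none of the 9 passed 2-fold between OCT4-GFP and THY1 cells, where 8.88% of all genes were higher and 11.8% lower. Ccne2 (-0.97, and -1.03 when scaled to Ddx4 and Dazl), Ccnd1 (0.96) and Ccnb2 (0.89) came nearest. Of the macrophage markers that could be counted, 8 of 9 were higher in P7 OCT4-GFP than in P7 THY1 cells and 9 of 9 lower in ID4-GFP than in OCT4-GFP cells, and their part in these values was not tested. From P0 to P7 in OCT4-GFP cells none passed, and the lowest values were those of Ccnd1, Ccne1 and Ccnb3 (-0.79, -0.79 and -0.78), beside 2.49% higher and 3% lower of all genes. Between P7 ID4-GFP and P7 OCT4-GFP cells none passed either, with Ccnd1 (0.79) in front, beside 0.0218% higher and 1.67% lower of all genes. P7 VASA THY1 was higher than P7 THY1 in 1 cyclin, Ccnd1 (1.47), and lower in 0, beside 7.66% and 10.3% of all genes. Over all 13 comparisons 117 of 130 differences could be counted, those of Ccna1 being left out. Of these 28 passed 2-fold, 21 higher and 7 lower, and 2 passed 4-fold. Of all genes 1.69% to 36.3% passed 2-fold in either direction and 0.285% to 12.1% passed 4-fold, depending on the comparison.

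The partners and regulators of these cyclins were described from a list of 75 genes: CDKs, their activators and inhibitory kinases, RB and E2F genes, the DREAM and FOXM1 regulators, the cyclin breakdown machinery and other cyclins. Between KIT and THY1 cells 0 of 68 that could be counted passed 2-fold at P7, beside 5.51% of all genes in either direction. At P12, 6 of 70 were higher and 0 lower, or 8.57% in all, beside 11.2% of all genes. By direction, 4.66% of all genes were higher and 6.51% lower. At P14, 10 of 72 were higher and 3 lower, or 18.1% in all, beside 24.2% of all genes. Here 8.58% of all genes were higher and 15.7% lower. At P12 the higher ones were led by Inca1, which encodes an inhibitor that binds cyclin A1 with CDK2 (46.6 against 13.5 FPKM). Next came Foxm1, a transcription factor of genes of G2 and mitosis (26.1 against 8.78 FPKM), and Spdya, which encodes Speedy A, a non-cyclin activator of CDK2 needed in meiosis (29.7 against 12.1 FPKM). Cdc25a, which encodes a phosphatase that activates CDKs, followed (31.7 against 13.5 FPKM).

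At P14 the largest differences were in Cntd1, which encodes a cyclin-like protein of meiotic crossing over (14.0 FPKM in KIT against 72.9 FPKM in THY1 cells), and Cks2, a CDK subunit gene needed for meiosis in mice (2.92 against 12.8 FPKM). Fbxo5, which encodes the inhibitor EMI1 of the complex that breaks down A and B cyclins, stood at 36.8 against 10.2 FPKM. Pkmyt1, the gene of a kinase that holds CDK1 inactive, stood at 8.56 against 30.8 FPKM. Of the catalytic partners, none of Cdk1, Cdk2, Cdk4 and Cdk6 passed 2-fold between KIT and THY1 cells at any age. Cdk4 stood at 160, 98.1 and 101 FPKM in KIT cells at P7, P12 and P14, and at 247, 207, 148 and 117 FPKM in THY1 cells at P0, P7, P12 and P14. Cdk6 came nearest at P14, at 12.8 FPKM in KIT against 5.95 FPKM in THY1 cells, short of 2-fold only with the pseudocount. From P12 to P14 in THY1 cells Cdk6 was lower past 2-fold (5.95 against 24.3 FPKM). Cdk2 ranged over the 11 groups from 37.3 (P0 THY1) to 70.8 FPKM (P0 OCT4-GFP).

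With age, 9.86% of the partners that could be counted passed 2-fold from P7 to P12 in KIT cells and 10.4% in THY1 cells. Of all genes 9.9% and 8.41% did so in either direction. From P12 to P14 it was 8.45% of partners in KIT cells and 22.1% in THY1 cells, beside 16.7% and 32.5% of all genes. By direction, from P7 to P12 in KIT cells 3 of 71 partners were higher and 4 lower, beside 5.83% and 4.07% of all genes. In THY1 cells it was 3 and 4 of 67, beside 6.1% and 2.32%. From P12 to P14 it was 3 and 3 of 71 in KIT cells, beside 5.52% and 11.2%. In THY1 cells it was 9 and 6 of 68, beside 15.9% and 16.6%. Spdya, Inca1 and Cntd1 were higher at P12 than at P7 in both populations. Spdya stood at 29.7 against 2.59 FPKM in KIT cells and 12.1 against 1.59 FPKM in THY1 cells, Inca1 at 46.6 against 6.97 FPKM and 13.5 against 3.98 FPKM, and Cntd1 at 7.30 against 1.16 FPKM and 5.63 against 0.758 FPKM. Ccng1, a cyclin gene induced by p53, was lower at P12 than at P7 in KIT cells (26.7 against 66.5 FPKM) and in THY1 cells (27.3 against 61.6 FPKM). So was Cks1b, a CDK subunit gene, in KIT cells (33.6 against 68.4 FPKM) and in THY1 cells (29.1 against 66.2 FPKM). From P12 to P14 in THY1 cells Cntd1 (72.9 against 5.63 FPKM), Spdya (92.5 against 12.1 FPKM) and Pkmyt1 (30.8 against 4.91 FPKM) were higher, and Ccnl1, a cyclin gene of the splicing machinery, was lower (17.1 against 101 FPKM). From P12 to P14 in KIT cells E2f2 was higher (7.73 against 2.13 FPKM), and Ccnl1 (20.1 against 72.1 FPKM), Ccnl2 (33.3 against 81.0 FPKM) and Ccnt1 (17.9 against 39.3 FPKM), genes of cyclins that act in transcription and splicing, were lower.

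In P7 against P0 THY1 cells Ccnf, an F-box cyclin gene (44.1 against 15.4 FPKM), and Cdc20, an activator of cyclin B breakdown (73.5 against 29.9 FPKM), were higher. The RB relative Rbl2 (4.75 against 12.8 FPKM) and the phosphatase gene Cdc25b (4.48 against 11.4 FPKM) were lower. In OCT4-GFP cells Ccnk (23.1 against 8.43 FPKM) and Cdk6 (16.1 against 5.96 FPKM) were the only partners past 2-fold from P0 to P7. They were 2 of 67 that could be counted, or 2.99%, beside 5.48% of all genes in either direction. Both were higher, beside 2.49% of all genes higher and 3% lower. From P0 to P7 in THY1 cells 6.06% of partners passed, beside 23.5% of all genes. That was 2 of 66 higher and 2 lower, beside 6.34% and 17.2%. Between OCT4-GFP and THY1 cells it was 20.9% at P0 and 10.4% at P7, beside 36.3% and 20.7% of all genes. At P0 11 of 67 were higher and 3 lower, beside 14.5% and 21.9%. At P7 5 of 67 were higher and 2 lower, beside 8.88% and 11.8%. Between P7 VASA THY1 and P7 THY1 it was 13.4%, beside 18% of all genes. That was 6 of 67 higher and 3 lower, beside 7.66% and 10.3%. At P0, OCT4-GFP cells had Rbl2 at 1.91 against 12.8 FPKM in THY1 cells, Mybl2, which encodes the cell cycle factor B-MYB, at 18.2 against 3.86 FPKM, Cdc25a at 54.5 against 13.7 FPKM and Ccnf at 59.1 against 15.4 FPKM. At P7, OCT4-GFP cells had Ccnl1 at 33.1 against 91.2 FPKM in THY1 cells, E2f1 at 23.5 against 8.62 FPKM, Anapc2 at 55.6 against 21.3 FPKM and Fbxo31 at 75.4 against 29.1 FPKM. P7 VASA THY1 had Inca1 at 15.1 against 3.98 FPKM in P7 THY1, E2f2 at 5.93 against 1.26 FPKM, Ccnl1 at 30.7 against 91.2 FPKM and Ccng1 at 26.0 against 61.6 FPKM.

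**Figure D5:**
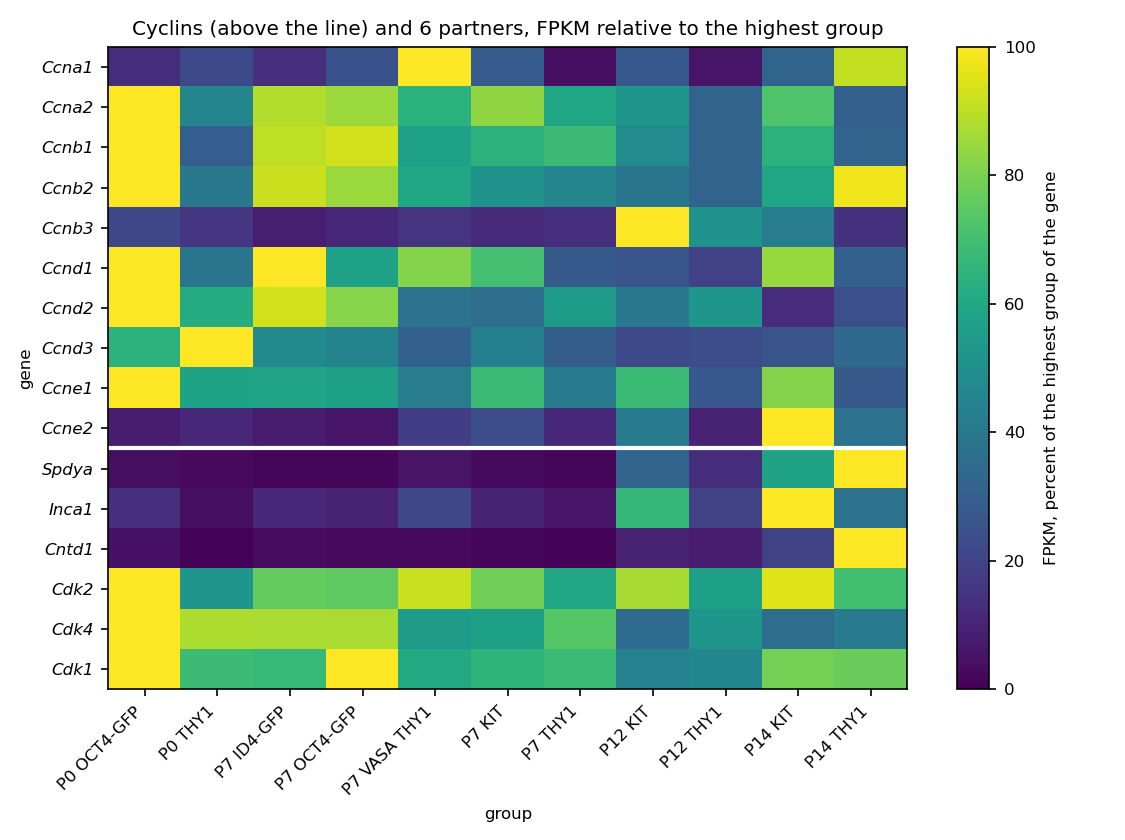
Level of each cyclin (above the white line) and of 6 partners (below it) in the 11 groups, FPKM as a percentage of the highest group of that gene (color scale, 0 to 100). Spdya and Cntd1 peak in P14 THY1 at 92.5 and 72.9 FPKM and Inca1 in P14 KIT at 70.0 FPKM, while Cdk4 is highest in P0 OCT4-GFP at 282 FPKM.

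The genes whose pattern was most like each cyclin were ranked by Pearson's r of log2(FPKM + 1) over the 11 groups, among 12268 genes that reached 5 FPKM in some group. With so many genes and 11 groups, high values of r arise readily, and they are given as descriptions. Ccne2 was closest to 1700014N06Rik (r = 0.97), which RefSeq lists as H2bfm, and to Esx1, an X-linked homeobox gene (0.96), both highest in P14 KIT. Ccnd2 was closest to Sort1, the sortilin gene (0.97), and Mgat4a (0.97), both highest in P0 OCT4-GFP and lowest in P14 KIT. Ccnb3 was closest to 4930447C04Rik (0.95) and Stxbp5l (0.95), both highest in P12 KIT and lowest in P7 OCT4-GFP. Ccnb1 was closest to Dusp9, a MAP kinase phosphatase gene (0.98), and Mcm3, a subunit of the replicative helicase (0.97). Ccna2 was closest to Bnc1, a transcription factor gene (0.95), and Mknk2 (0.95), and Ccnd1 to Rfc3, of the replication clamp loader (0.95), and Cdkn2aipnl (0.95). Ccnb2 was closest to Cops7a (0.98) and Ndufs6 (0.98). Ccnd3 was closest to Mrc2, a collagen receptor gene (0.96), and Slc39a13 (0.95), both highest in P0 THY1. Ccne1 had the lowest top values, with AW146020, listed as Gcfc2 (0.89), and Sox15 (0.88).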

How the data were processed

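RNA of 16 libraries in 11 groups was used, of 30 samples in the series; the bisulfite and chromatin samples were not analysed here. Per the labels' protocols, ribosomal RNA was depleted and libraries were directional. The submitters' processing notes name CASAVA, TopHat2 2.0.9, Cufflinks 2.1.1 and mouse build mm9, without roles. The authors deposited FPKM, 1 value per gene and group; how replicates were combined is not given in the sources used here. The planned limma test was not run, since there is no value per library.

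Differences of log2(FPKM + 1), counts at 2-fold and 4-fold (where the higher group reached 5 FPKM), list sums and correlations came from Python 3.11.15 scripts using pandas 2.3.3, numpy 2.4.6, scipy 1.17.1 and, for plots, matplotlib 3.10.9. The counting step was checked on simulated data. Alternatives were a pseudocount of 0.1, a minimum FPKM of 1 or none, median scaling, quantile normalization and, added after seeing the data, scaling to Ddx4 and Dazl and P7 VASA THY1 in place of P7 THY1. The cyclins, lists and rules were chosen with earlier results of these data known. Named genes are the 10 cyclins, up to 4 counted partners per comparison by size, and for each cyclin reaching 5 FPKM the 2 genes most like it. A partner named for a comparison is in places also given for another. Cdk1, Cdk2, Cdk4 and Cdk6 and some single cell type markers are named outside this rule. Fragment worth was read from genes under 0.05 FPKM. Symbols are those of the table; all 10 are current in RefSeq (GRCm38.p6), which gave the promoters.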

Additional observations from a re-analysis of the deposited data

Results flagged for a closer look

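Over 7 pairs of like comparisons and 10 cyclins, 70 in all, 6 differences ran in opposite directions and were at least 2-fold apart. None of these was tested. Both comparisons of a pair needed 5 FPKM in the higher group, so Ccna1 could not be among them. The share of all genes under the same rule was not computed, so the 6 have no background to be read against. The KIT minus THY1 difference of Ccnb3 was 0.94 at P12 and 1.43 at P14 but -0.10 at P7, so it exceeded that at P7 by 1.05 at P12 and by 1.53 at P14 (log2). For Ccnb1 the KIT minus THY1 difference was 0.94 at P14 and -0.09 at P7, apart by 1.03. Ccne2 was higher at P12 than at P7 in KIT cells (0.78) and lower in THY1 cells (-0.26), apart by 1.04. From P0 to P7, Ccnb1 differed by -0.10 in OCT4-GFP cells and by 1.11 in THY1 cells, apart by -1.20. Ccnd3 was higher in OCT4-GFP than in THY1 cells at P7 (0.57) and lower at P0 (-0.62), apart by 1.19.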

How the results depend on the processing

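Of the 28 differences that passed 2-fold, all 28 stayed past it with a pseudocount of 0.1, with a minimum FPKM of 1 and with none; 27 did with quantile normalization and 26 with median scaling, and none turned round. Median scaling moved the median of all genes by -0.13 to 0.26 (log2) and left 1 cyclin at P7 between KIT and THY1 cells, Ccnd1. The 4-fold rule left 2 of the 28, with 1 between KIT and THY1 cells at P12 and 0 at P7 and P14 and in the 3 THY1 age steps. Scaling to Ddx4 and Dazl moved the median of all genes by -1.42 to 0.35; 20 of 28 were kept, 5 lost and 3 turned round: Ccna2 (-0.35), Ccnb2 (-0.17) and Ccnd1 (-0.12) between P0 OCT4-GFP and THY1 cells. It gave 31 in all, 14 higher and 17 lower, with 1 between KIT and THY1 cells at P12, 5 from P0 to P7 and 1 from P7 to P12 in THY1 cells. With P7 VASA THY1 in place of P7 THY1, 2 of 6 were kept, 3 lost and 1 turned round, Ccnd1 between KIT and THY1 cells at P7 (-0.22), where 0 passed. The cause of these changes was not tested. No paired analysis was possible because the table gives 1 value per group, and no library could be left out for the same reason.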
